A study of Mus musculus with 4 samples.

Results

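A set of ventromedial hypothalamus neuron genes, 6 of the 27998 genes listed in the deposited table, was followed in the developing mouse hypothalamus: Nr5a1, Fezf1, Adcyap1, Nr2f1, Nr2f2 and Rbfox1. They were selected on values measured in these same cells, with non-neuronal cells as background. The values were their detection and joint detection in neurons with and without UMIs (unique molecular identifiers, the counted transcript molecules) of Nkx2-1 and Sox14. Their shares, levels and joint detection below are therefore given as descriptions, with no test. The cells came from the arcuate nucleus (ARC) of E15 Pomc-eGfp embryos on a C57BL/6 background, which carry a green reporter under control of Pomc regulatory sequence and were not otherwise treated. The age is that of the characteristics, while the sample titles write E15_5. The ARC of 6 embryos was cut out along the reporter signal and pooled into 1 droplet library, whose 4 deposited samples are 4 sequencing runs. There was therefore 1 sample and no control group, and each interval below covers counting error only. All 6 genes had UMIs in cells that passed the filters, between 334 UMIs for Adcyap1 and 4298 for Nr2f2.

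The ventromedial nucleus lies beside the ARC, and its neurons are largely glutamatergic and take part in energy balance, defence and reproductive behaviour. Nr5a1 encodes steroidogenic factor 1, an orphan nuclear receptor that marks this nucleus and is needed for its assembly, and Fezf1 encodes a zinc finger repressor that acts in the development of the same neurons. Adcyap1 encodes the precursor of the neuropeptide PACAP, Nr2f1 and Nr2f2 encode the nuclear receptors COUP-TFI and COUP-TFII, which pattern many tissues including vessels, and Rbfox1 encodes a splicing factor of maturing neurons. Nkx2-1 is a homeobox gene of the tuberal hypothalamus from which both the ARC and the ventromedial nucleus arise, and Sox14 encodes a SoxB transcription factor of several neuron types.

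On GRCm38, the assembly that mm10 names, GENCODE places the genes on separate chromosomes. Nr5a1 lies at chr2:38692656-38714542, Fezf1 at chr6:23245044-23248362, Nr2f2 at chr7:70351944-70366735 and Nr2f1 at chr13:78188973-78199757, each on the minus strand. Rbfox1 lies at chr16:5885355-7411526 and Adcyap1 at chr17:93199017-93206537, both on the plus strand. The upstream sequences of Fezf1, Nr2f2 and Adcyap1 are shown because these 3 genes carry the main contrast described below: Nr2f2 was high in neurons with Fezf1 and, among neurons with Sox14, lower with Adcyap1 than without it. They are RefSeq windows of GRCm38.p6 that end before the first transcribed base of any GENCODE transcript, written 5′ to 3′ on the strand of the gene, with matches to the E-box letters CANNTG in capitals. RefSeq windows matched 5 of the 6 genes, all but Nr5a1.
Fezf1, chr6:23248363-23248514, minus strand: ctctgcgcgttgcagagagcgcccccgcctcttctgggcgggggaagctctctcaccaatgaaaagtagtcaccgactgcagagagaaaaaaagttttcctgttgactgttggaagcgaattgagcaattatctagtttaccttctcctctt
Nr2f2, chr7:70366747-70366996, minus strand: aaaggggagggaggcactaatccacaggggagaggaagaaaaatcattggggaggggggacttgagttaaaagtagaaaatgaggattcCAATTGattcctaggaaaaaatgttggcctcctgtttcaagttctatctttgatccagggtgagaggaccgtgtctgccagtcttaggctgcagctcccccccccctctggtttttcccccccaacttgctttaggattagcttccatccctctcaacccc
Adcyap1, chr17:93198767-93199016, plus strand: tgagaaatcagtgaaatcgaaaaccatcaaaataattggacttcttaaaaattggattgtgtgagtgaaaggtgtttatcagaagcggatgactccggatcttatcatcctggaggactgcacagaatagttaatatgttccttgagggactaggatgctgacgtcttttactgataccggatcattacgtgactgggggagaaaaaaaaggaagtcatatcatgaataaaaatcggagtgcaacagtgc
The Nr2f2 window held 1 E-box, and the other windows held 0. Letters that match CANNTG stood in 66.2% of all 32851 promoter windows of 250 bases and in 49.7% of windows of 152 bases, the length shown for Fezf1. The half-site AGGTCA of nuclear receptors, searched on both strands, stood in none of the 3 windows. It stood in 14.0% of all windows of 250 bases and in 8.56% of those of 152 bases. The NKX2-1 core CAAGTG was likewise at 0 matches, against 11.6% of all windows of 250 bases and 7.75% of those of 152 bases. These matches describe letters in a window and say nothing on binding.

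Of 6465 barcodes, 6351 passed the filters, with 1748 to 16836 UMIs each and a median of 3338. Cells with at least 2 UMIs of Stmn2, a microtubule regulator of neurons, were taken as neurons (4006 cells, median 3408.5 UMIs). Cells with 0 Stmn2 UMIs were taken as non-neuronal (1705 cells, median 3185 UMIs), and the 640 cells with 1 Stmn2 UMI were in neither class. The other neuron markers went with this split: all 5 of Tubb3, Map2, Snap25, Elavl3 and Dcx were higher in neurons, by a median log2 ratio of 2.56.

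Nr5a1, Fezf1, Adcyap1 and Rbfox1 were found mainly in neurons in this library, whereas Nr2f1 and Nr2f2 were also common outside them. Nr5a1 had a UMI in 337 of 4006 neurons, a share of 8.41% (exact 95% interval 7.57 to 9.32), and in 18 of 1705 non-neuronal cells (1.06%, 0.627 to 1.66). Its level was 27.2 CPM (UMIs of the gene scaled to 1000000 UMIs of the class) in neurons and 3.13 CPM in non-neuronal cells, a log2 ratio of 3.12 (2.47 to 3.84). Fezf1 had a UMI in 9.21% of neurons and 1.17% of non-neuronal cells, at 43.3 and 3.60 CPM (log2 ratio 3.59, 2.99 to 4.26). The neuropeptide gene Adcyap1 was found in 6.79% and 0.411% of them, at 20.8 and 1.10 CPM (log2 ratio 4.24, 3.18 to 5.57). Rbfox1 was found in 14.0% and 1.52%, at 55.1 and 4.23 CPM (log2 ratio 3.70, 3.15 to 4.31). These 4 genes had 94.0% to 96.2% of their UMIs in neurons.

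The shares of both COUP-TF genes were alike in and outside neurons. Nr2f1 had a UMI in 442 neurons (11.0%) and in 191 non-neuronal cells (11.2%), at 44.7 CPM (41.4 to 48.2) and 48.2 CPM (43.0 to 53.9). Nr2f2 had one in 1103 neurons and in 469 non-neuronal cells, 27.5% of each class, but at 205 CPM (198 to 212) against 132 CPM (123 to 141), a log2 ratio of 0.64. Against the 200 macrophage, vascular or fibroblast cells alone, the Nr2f2 log2 ratio turned to -0.93 (-1.10 to -0.76), and that of Nr2f1 went from -0.11 to -1.57 (-1.86 to -1.27). A gene was called higher or lower when its log2 ratio reached 1 in size with an interval that left out 0. By that rule 4 of the 6 genes were higher in neurons and 0 were lower (Nr2f1 was lower against the 200 cells), while 12% of the 12217 genes compared were higher and 19.3% lower. Since non-neuronal cells were the background when the 6 genes were selected, this count is not support for them.

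The count of UMIs per neuron differed between the genes. For Nr5a1, 80.1% of the neurons with a UMI had exactly 1, and the highest count was 4. Adcyap1 was alike, with 83.8% at 1 UMI and a highest count of 3. Fezf1 reached 9 UMIs, and 20.3% of its neurons had 3 or more. Nr2f2 reached 17 UMIs, with 3 or more in 40.2% of its neurons. A neuron without a UMI of Nr5a1 or Adcyap1 can thus not be taken as a neuron without the transcript. Neurons with an Nr5a1 UMI were also deeper, at a median of 4422 UMIs against 3352 in the neurons without one. When every cell was thinned to 2167 UMIs, which left 3726 neurons and 1437 non-neuronal cells, the neuronal shares were 4.51% for Nr5a1, 6.25% for Fezf1, 3.81% for Adcyap1 and 8.40% for Rbfox1. The non-neuronal shares after thinning were 0.626%, 0.626%, 0.278% and 0.696% in that order.

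Levels on both sides of the cutoff of 2 Stmn2 UMIs differed between the genes. In cells with 1 Stmn2 UMI, just outside it, Nr5a1 stood at 1.16 CPM (0.239 to 3.38) and Rbfox1 at 2.70 CPM (1.09 to 5.56). In the 735 neurons with 2 or 3 Stmn2 UMIs, just inside it, they stood at 11.8 CPM (7.71 to 17.3) and 10.9 CPM (6.98 to 16.2). Just outside and just inside, Nr2f1 stood at 36.2 and 37.2 CPM and Nr2f2 at 113 and 126 CPM. Fezf1 was at 7.71 CPM (4.71 to 11.9) and 11.4 CPM (7.35 to 16.8) and Adcyap1 at 2.31 CPM (0.849 to 5.04) and 3.18 CPM (1.28 to 6.55), so that both overlapped. In the 1974 neurons with 8 or more Stmn2 UMIs, Nr5a1 reached 36.1 CPM (32.3 to 40.3) and Rbfox1 79.7 CPM (74.0 to 85.7). Fezf1 went from 11.4 to 29.9 and 57.1 CPM over neurons with 2 to 3, 4 to 7 and 8 or more Stmn2 UMIs, and Adcyap1 from 3.18 to 12.1 and 28.9 CPM. Nr2f1 varied less, between 35.5 and 50.7 CPM over the same classes. Nr2f2 went from 126 to 179 and 236 CPM. All 6 genes were thus highest in the neurons richest in Stmn2, which also had the most UMIs per cell (median 4170.5 against 2625 with 2 or 3 Stmn2 UMIs).

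The neurons were next divided by marker genes of other identities, with classes that may share cells, and the non-neuronal cells by exclusive marker gates. Nr5a1 stood at 82.8 CPM (72.8 to 93.7) in the 659 neurons with a Sox14 UMI, above every other class. The next classes were the 132 neurons with at least 10 Pomc UMIs, at 33.5 CPM (21.7 to 49.4), and the 280 neurons with Tbx3 and Nkx2-1 UMIs, at 30.2 CPM, whose intervals overlapped. Fezf1 followed the same first place at 134 CPM (121 to 147), but it was 17.1 CPM or lower in every other class and 8.04 CPM in the Pomc neurons. Rbfox1 was at 129 CPM in Sox14 neurons and at 112 CPM (89.7 to 139) in Pomc neurons, and these intervals overlapped. Adcyap1 was spread more widely: its 38.9 CPM (32.2 to 46.6) in Sox14 neurons overlapped with 29.3 CPM (12.6 to 57.7) in the 61 neurons with Neurod2 or Neurod6, which are genes of glutamatergic neuron differentiation. The 1087 neurons with Nhlh2 followed at 26.2 CPM (21.8 to 31.2), just below the interval of the Sox14 neurons.

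Among these classes Nr2f1 and Nr2f2 were highest in the 181 cells of the vascular or fibroblast gate, at 144 CPM (118 to 173) and 419 CPM (375 to 467), with a UMI in 38.7% and 68.0% of these cells. Among neuron classes Nr2f1 was highest in the neurons with Neurod2 or Neurod6, at 124 CPM (86.2 to 174), an interval that overlapped with that of the vascular or fibroblast cells. Nr2f2 was highest in Sox14 neurons, at 350 CPM (329 to 372), ahead of the Neurod2 or Neurod6 neurons at 267 CPM (209 to 336) with overlapping intervals. Both were low in Pomc neurons, with 4.02 CPM of Nr2f1 and 33.5 CPM of Nr2f2. In the vascular or fibroblast cells Nr5a1 and Adcyap1 had 0 UMIs, which by a floor of 3 counts allows a share of cells with a UMI of up to 1.66%, and the exact interval reaches 2.02%. Of the 18 non-neuronal cells with Nr5a1, 10 lay in the pituitary gate (2.46% of its 406 cells), and pituitary gonadotropes are known to use this gene. Of the neurons with markers of ARC lineages, those with Otp had 4.81 CPM of Nr5a1 (2.20 to 9.13), those with Dlx 0.757 CPM (0.0192 to 4.22) and those with Lhx1 3.02 CPM (0.0764 to 16.8), and the 49 with Ghrh had 0 UMIs, with an interval up to 22.0 CPM.

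**Figure D1:**
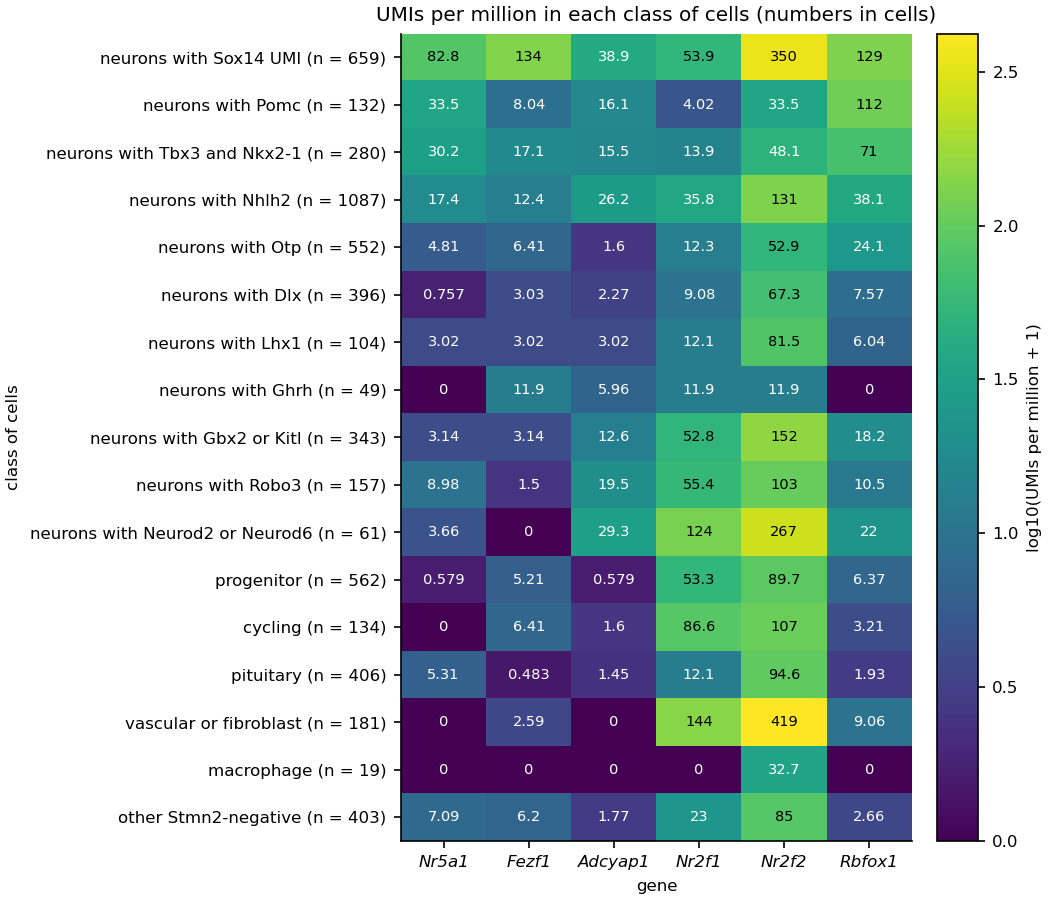
Level of each gene (columns) in each class of cells (rows), in CPM, printed in the cells and coloured on a log10 scale. Nr5a1 and Fezf1 were highest in the neurons with a Sox14 UMI (82.8 and 134 CPM), and Nr2f1 and Nr2f2 in the vascular or fibroblast cells (144 and 419 CPM).

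Nkx2-1 and Sox14 UMIs split the 4006 neurons into 428 with both, 231 with Sox14 only, 844 with Nkx2-1 only and 2503 with neither. Nr5a1 stood at 91.5 CPM (79.0 to 105) with both, 62.4 CPM (47.1 to 81.0) with Sox14 only, 29.8 CPM (24.2 to 36.3) with Nkx2-1 only and 7.89 CPM (6.17 to 9.94) with neither. Neighbours in this order overlapped only between the first pair, and the lowest class was still above the 3.13 CPM of non-neuronal cells. Fezf1 had another order, with 174 CPM (148 to 203) in neurons with Sox14 only, 117 CPM (102 to 132) with both, 39.8 CPM with Nkx2-1 only and 14.8 CPM with neither, and no neighbouring intervals overlapped. Rbfox1 had the order of Nr5a1, at 137 CPM (122 to 154), 111 CPM (90.6 to 135), 70.8 CPM and 24.9 CPM, and again the first pair overlapped. Adcyap1 had 44.6 CPM (36.0 to 54.5) with both and 25.6 CPM (16.2 to 38.4) with Sox14 only. It had 21.7 CPM (17.0 to 27.3) with Nkx2-1 only and 14.5 CPM (12.1 to 17.2) with neither, and all neighbouring intervals overlapped.

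The COUP-TF genes behaved differently from each other here. Nr2f2 was at 514 CPM (468 to 563) in neurons with Sox14 only and at 280 CPM (258 to 304) with both, but at 170 CPM in each of the classes without Sox14. Nr2f1 stayed between 40.4 and 61.3 CPM in all 4 classes. After thinning, the shares of Nr5a1 kept its order, at 15.5%, 12.0%, 5.72% and 1.43%. Those of Nr2f2 were 43.1% with Sox14 only, 32.0% with both, 16.4% with Nkx2-1 only and 18.5% with neither. Unthinned, Nr5a1 was in 33.4% of neurons with both genes and in 2.68% with neither, at medians of 4442.5 and 3358 UMIs per cell.

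**Figure D2:**
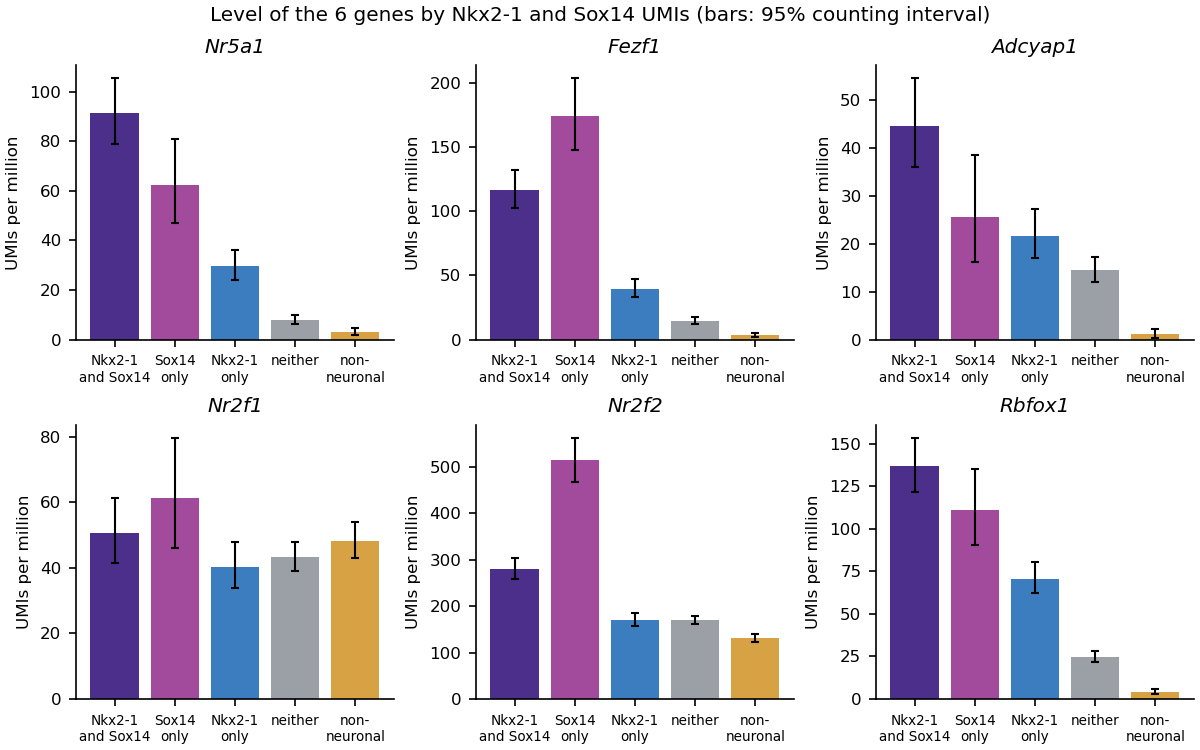
Level of each gene in CPM (bars, with 95% counting intervals) in neurons with UMIs of Nkx2-1 and Sox14, Sox14 only, Nkx2-1 only or neither, and in non-neuronal cells. Fezf1 and Nr2f2 were highest with Sox14 only (174 and 514 CPM), Nr5a1 and Rbfox1 with both genes (91.5 and 137 CPM), and Nr2f1 varied least.

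Against neurons without a Sox14 UMI, 5 of the 6 genes were called higher in Sox14 neurons, where 1.42% of 10911 genes were higher and 5.06% lower. The log2 ratios were 2.64 for Fezf1 (2.41 to 2.87), 2.59 for Nr5a1, 1.80 for Rbfox1, 1.25 for Adcyap1 and 1.04 for Nr2f2, and 0.34 (0.08 to 0.60) for Nr2f1. The Nr2f2 call was lost when Sox14 was counted from 2 UMIs (0.69) or neurons from 4 Stmn2 UMIs (0.97). With against without Nkx2-1, 3 of the 6 genes were called higher, where 1.04% of 10911 genes were higher and 3.04% lower. These were Nr5a1 (2.07, 1.77 to 2.39), Rbfox1 (1.56) and Fezf1 (1.26). Adcyap1 lay just under the limit at 0.98 (0.66 to 1.31), and Nr2f1 and Nr2f2 were at -0.02 and 0.09. Since the genes were selected on detection with and without these UMIs, neither count is support for them.

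Joint detection was counted for the 15 pairs of the 6 genes and set against the number expected if detection were independent within 10 strata of cell depth. In the 4006 neurons 11 of the 15 pairs had an interval above 1, and 0 had one below 1, with 6 pairs above 1 when detection needed 2 UMIs. Of the 58554 pairs of 1 of these genes with another gene found in at least 2% of neurons, 3.76% had an interval above 1 and 4.25% one below 1, and the shares of neurons with those genes ranged more widely than those of the 6. Since joint detection was part of the selection, nothing is read from the count of 11. Nr5a1 and Fezf1 met in 97 neurons where 40.8 were expected, a ratio of 2.38 (1.93 to 2.90), and 28.8% of Nr5a1 neurons also had a Fezf1 UMI. With detection from 2 UMIs the interval of this pair included 1 (1.99, 0.858 to 3.92). Fezf1 and Nr2f2 met in 253 neurons, 2.22 times the expected number (1.95 to 2.51), and 68.6% of Fezf1 neurons had an Nr2f2 UMI. Rbfox1 met Fezf1 in 151 neurons (2.11) and Nr5a1 in as many (2.04). Nr2f1 and Nr2f2 met in 279 neurons (2.06, 1.83 to 2.32), and Fezf1 and Nr2f1 in 88 (1.90).

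Adcyap1 followed Rbfox1 (1.56, 1.27 to 1.90), Fezf1 (1.59, 1.20 to 2.07) and Nr5a1 (1.45, 1.08 to 1.91), but not the COUP-TF genes. It met Nr2f1 in 30 neurons (0.810, 0.546 to 1.16) and Nr2f2 in 84 (0.926, 0.738 to 1.15). The intervals of Adcyap1 with Nr5a1 and with Fezf1 included 1 in thinned cells (1.41 and 1.46), and that with Fezf1 turned to 0.631 (0.0764 to 2.28) with detection from 2 UMIs. Nr5a1 and Nr2f1 met in 44 neurons where 43.7 were expected (1.01, 0.732 to 1.35). Outside neurons Nr2f1 and Nr2f2 met in 116 cells, 1.97 times the expected number. Nr5a1 and Fezf1 met there in 1 cell, too few to compare (4.06, 0.103 to 22.6).

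Within the 659 neurons with a Sox14 UMI, 12 of the 15 intervals included 1. Nr5a1 and Fezf1 met in 66 of them, a ratio of 0.996 (0.770 to 1.27), and Nr5a1 and Rbfox1 in 97 (1.16, 0.941 to 1.42). The 3 intervals above 1 there belonged to the pairs among Fezf1, Nr2f1 and Nr2f2: 1.51 for Fezf1 and Nr2f2 (1.27 to 1.78), 1.83 for Nr2f1 and Nr2f2 (1.45 to 2.27) and 1.41 for Fezf1 and Nr2f1 (1.03 to 1.88). Adcyap1 and Nr2f2 met in 26 neurons, at 0.693 (0.453 to 1.02). In the 3347 neurons without a Sox14 UMI 10 pairs were above 1. Pairs with other genes were not counted within these classes, and nothing is read from the counts of pairs. Nr5a1 and Fezf1 met in 31 neurons without a Sox14 UMI, at a ratio of 3.78 (2.57 to 5.36). In the 2503 neurons with neither Nkx2-1 nor Sox14 UMIs they met in 22 neurons, a ratio of 9.17 (5.75 to 13.9). With Nkx2-1 UMIs the ratio of this pair had an interval that included 1, at 1.22 (0.917 to 1.58) in all 1272 such neurons and 1.04 (0.476 to 1.98) in the 844 with Nkx2-1 only, against 5.42 (3.90 to 7.32) in the 2734 neurons without Nkx2-1.

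**Figure D3:**
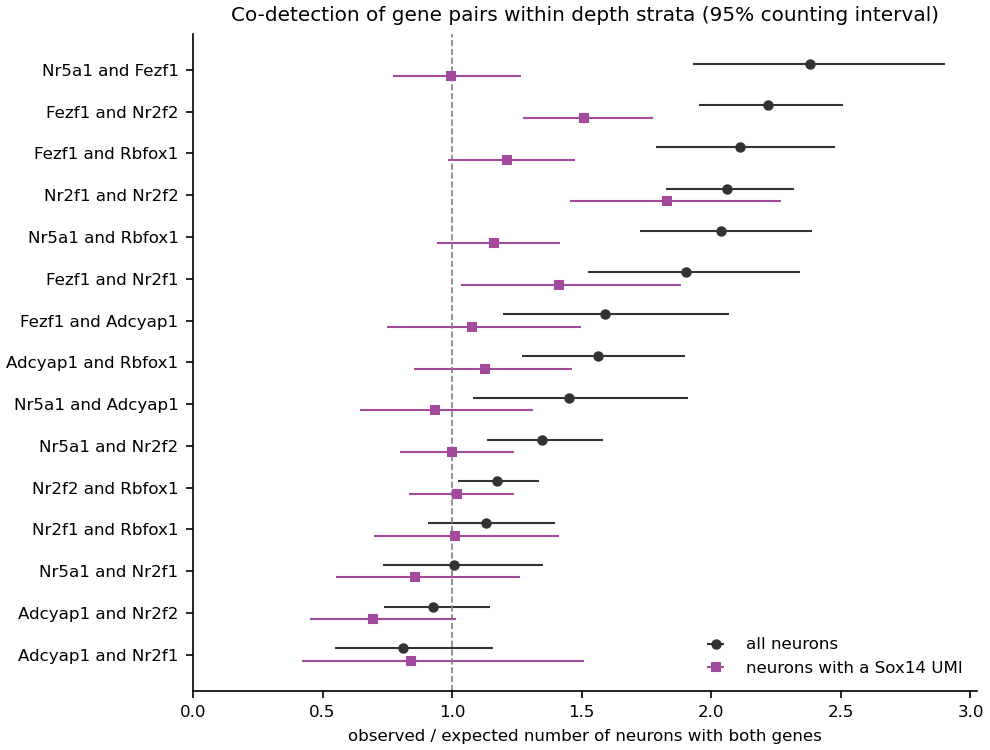
Observed over expected number of neurons with UMIs of both genes of a pair, in all neurons (circles) and in neurons with a Sox14 UMI (squares), with 95% counting intervals and a dashed line at 1. For Nr5a1 and Fezf1 the ratio was 2.38 in all neurons and 0.996 in Sox14 neurons, whereas the pairs among Fezf1, Nr2f1 and Nr2f2 stayed above 1 in both.

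Of Nr5a1, Fezf1 and Adcyap1, 3216 neurons had a UMI of none, 617 of 1, 158 of 2 and 15 of all 3. Neurons with 2 or more numbered 173 (4.32%, 3.71 to 4.99), where 99.9 were expected from independent detection within the strata of depth. Outside neurons 1 cell had 2. The share of neurons with 2 or more was 1.40% in thinned neurons and 0.349% when detection needed 2 UMIs. In Sox14 neurons 110 had 2 or more, 16.7%, where 109 were expected. Of all 6 genes, 104 neurons had UMIs of 4 or more, 3.77 times the expected 27.6, and 2170 neurons (54.2%) had none.

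The partners of each gene differed when neurons were sorted by which of these 3 genes they held. In the 232 neurons with Fezf1 alone of the 3, Nr2f2 was at 650 CPM (602 to 702) and Nr2f1 at 111 CPM (91.0 to 133). In the 204 neurons with Nr5a1 alone of the 3, they were at 209 CPM (182 to 240) and 30.6 CPM (20.7 to 43.7). The Fezf1 neurons were thus above the Nr5a1 neurons by a log2 ratio of 1.64 for Nr2f2 (1.41 to 1.87) and 1.85 for Nr2f1 (1.26 to 2.48). Rbfox1 did not differ between them beyond counting error, at 119 and 127 CPM (log2 ratio -0.08, -0.46 to 0.29), and neither did Sox14 (-0.02, -0.29 to 0.24). Nkx2-1 was lower in the Fezf1 neurons, at 295 against 360 CPM (-0.29, -0.52 to -0.06).

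In the 82 neurons with both Nr5a1 and Fezf1, Nr2f2 stood at 798 CPM (708 to 895) with a UMI in 78.0% of cells, above the Fezf1 neurons, and Nr2f1 at 103 CPM (72.4 to 142), which overlapped with them. With Adcyap1 the level of Nr2f2 varied with the other gene detected. It was at 164 CPM (137 to 193) in the 181 neurons with Adcyap1 alone, against 150 CPM (143 to 157) in those with none of the 3, and at 382 CPM (305 to 473) in the 40 neurons with Fezf1 and Adcyap1. In the 36 neurons with Nr5a1 and Adcyap1, Nr2f2 was at 73.2 CPM (42.6 to 117) with a UMI in 22.2%, and Nr2f1 had 1 UMI in all. The log2 ratio of neurons with Nr5a1 and Fezf1 over these 36 was 3.45 for Nr2f2 (2.74 to 4.25). Rbfox1 did not differ between them beyond counting error, at 170 CPM (130 to 218) and 185 CPM (134 to 249). In the 15 neurons with all 3 genes Nr2f2 lay between, at 232 CPM (148 to 345), but all its 24 UMIs came from 4 of these neurons. Rbfox1 had a UMI in 12 of the 15. Rbfox1 was lowest in the neurons with none of the 3 genes, at 32.1 CPM (29.0 to 35.5), and 80.0 CPM or more in every other class. Thinned shares gave the same contrast, with Nr2f2 in 68.4% of the thinned neurons with Nr5a1 and Fezf1 and in 13.9% of those with Nr5a1 and Adcyap1.

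Inside the Sox14 neurons, Nr2f2 was at 564 CPM in neurons with a Fezf1 UMI and at 237 CPM in those without, a log2 ratio of 1.25 (1.07 to 1.43). With an Adcyap1 UMI it was at 154 CPM and without one at 396 CPM, a log2 ratio of -1.37 (-1.70 to -1.05). With and without Nr5a1 it differed less, at 315 and 367 CPM (-0.22, -0.41 to -0.03). Nr2f1 was at 35.4 CPM with an Nr5a1 UMI and at 63.3 CPM without (-0.84, -1.42 to -0.30). Rbfox1 was higher with Adcyap1 (0.52, 0.18 to 0.85), with Nr5a1 (0.51, 0.21 to 0.81) and with Fezf1 (0.35, 0.05 to 0.65), all under the limit for a call.

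**Figure D4:**
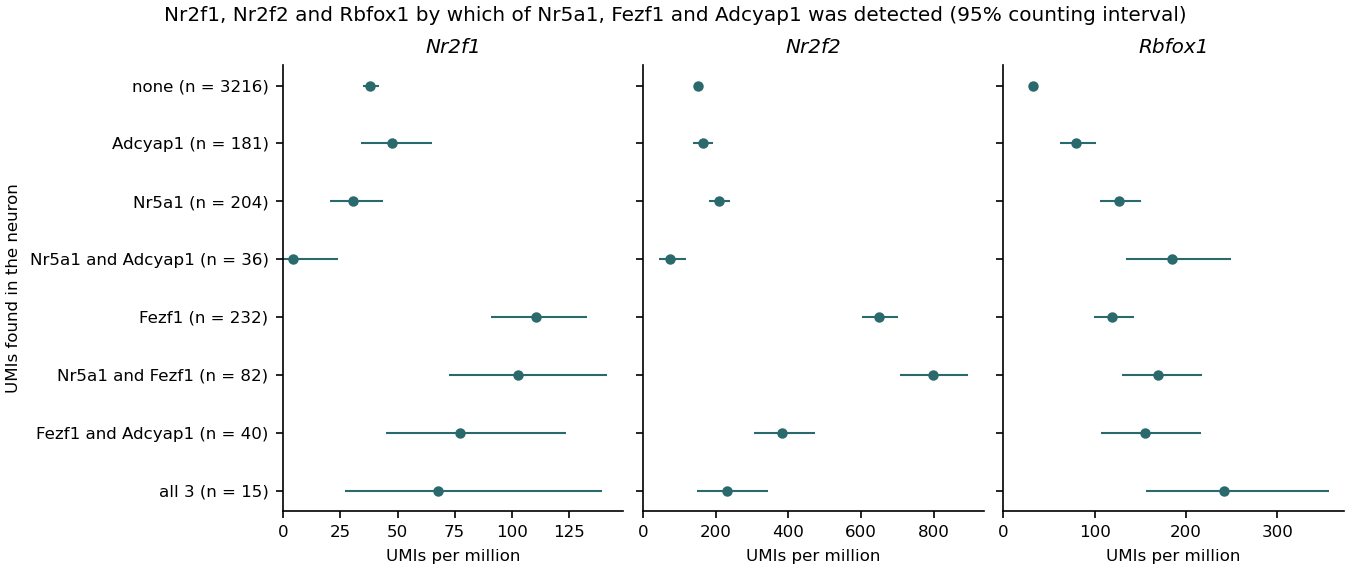
Level of Nr2f1, Nr2f2 and Rbfox1 in CPM (points, with 95% counting intervals) in neurons grouped by which of Nr5a1, Fezf1 and Adcyap1 had a UMI. Nr2f2 reached 650 and 798 CPM in the neurons with Fezf1 and with Nr5a1 and Fezf1, and 73.2 CPM in those with Nr5a1 and Adcyap1, while Rbfox1 was lowest with none of the 3 (32.1 CPM).

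To place the neurons with 2 or more of Nr5a1, Fezf1 and Adcyap1 (173 cells, median 4918 UMIs) among the neuron types of the region, all other genes were compared with the neurons that had none (3216 cells, median 3282 UMIs). Of 10525 genes, 2.09% were called higher and 6.33% lower. Of the other 3 members, Rbfox1 (2.47, 2.20 to 2.74) and Nr2f2 (1.59, 1.43 to 1.74) were called higher, and Nr2f1 stood at 0.83 (0.42 to 1.21). Joint detection with Nr5a1, Fezf1 and Adcyap1 was part of how these 3 members were selected, so their values here are descriptions only. The Nr2f2 call was lost when detection of the 3 genes needed 2 UMIs (0.48, -0.18 to 1.07). The gene lists used here were chosen with earlier results of these data known, so counts over them are descriptions and not support. Of 18 further genes known from ventromedial neurons, 14 had enough UMIs, of which 10 were higher and 1 lower. Their median log2 ratio was 1.89 against -0.08 over all genes. The homeobox gene Nkx2-2 led at 3.33 (2.81 to 3.84), with a UMI in 19.1% against 1.80% of neurons. The coactivator gene Vgll2 followed at 2.93 (2.45 to 3.40), the neuronal pentraxin gene Nptx2 at 2.36 (2.09 to 2.63), the nuclear receptor gene Nr0b1 at 2.11 (1.33 to 2.85) and the synapse organiser gene Cbln1 at 2.10 (1.89 to 2.31). Gda, Lmo3, Bdnf, Pdyn and Cnr1 lay between 1.18 and 2.09. Dlk1 was lower, at -2.23 (-2.48 to -1.99), Tac1 did not differ beyond counting error (-0.35, -0.78 to 0.05), and Esr1, the oestrogen receptor gene of adult ventromedial neurons, had too few UMIs to compare (0 against 40, at least 1.04-fold lower by the floor of 3 counts).

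The listed genes of ARC lineages ran the other way. The list leaves out Sox14, which the study uses as a marker of developing Kisspeptin neurons of the ARC and which was higher (2.45, 2.21 to 2.70). Of 16, 12 were called lower and 0 higher, with a median log2 ratio of -3.48, or -2.92 with the genes without a UMI at their bound. When detection of the 3 genes needed 2 UMIs, 4 of these genes were called lower. Sst was at -6.13 (-9.18 to -4.28), Dlx1 at -4.29, Ghrh at -4.00, Npy at -3.59 and Otp at -3.29 (-4.01 to -2.66). Dlx5 and Lhx1 had 0 UMIs in the 173 cells and were at least 8.50-fold and 9.98-fold lower by a floor of 3 counts over the group. Pomc (-0.78), Isl1 (-0.31), Six6 (-0.97) and Prox1 (-0.85) did not reach the limit. Of the genes of other diencephalic regions 8 of 9 were lower, among them Pou4f1, a habenula gene, at -5.80 (-7.24 to -4.67), and Lhx5 was higher at 1.82 (1.14 to 2.44). Of the transmitter genes, the GABA genes Gad1 (-4.15), Gad2 (-1.86) and Slc32a1 (-3.72) were lower. Slc17a6, the vesicular glutamate transporter gene, stood at 0.77 (0.42 to 1.10) at 90.7 against 53.1 CPM.

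**Figure D5:**
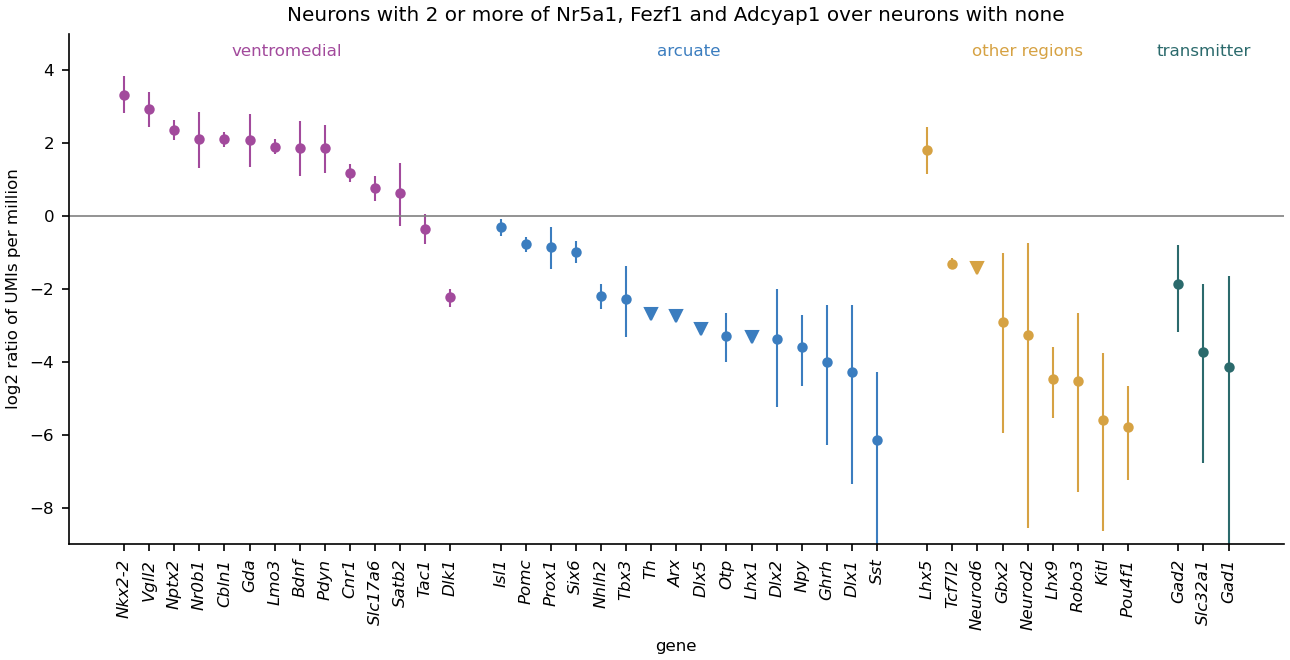
Log2 ratio of CPM in neurons with 2 or more of Nr5a1, Fezf1 and Adcyap1 over neurons with none, for genes of 4 lists (points, with 95% counting intervals, cut off at -9; triangles are bounds for genes with 0 UMIs). Of the ventromedial genes 10 of 14 were called higher, and of the ARC genes 12 of 16 lower (4 when detection of the 3 genes needed 2 UMIs). The lists were chosen with earlier results of these data known.

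Outside these lists, the 10 largest ratios among genes with a UMI in at least 10% of the 173 neurons included Vstm2a (2.62), Fam43b (2.58), the kinase gene Prkcd (2.54), the Ras exchange factor gene Rasgrf2 (2.39) and Ankrd34b (2.31). Vstm2a had a UMI in 36.4% against 6.13% of neurons. Sox14 itself was at 2.45 (2.21 to 2.70) and Nkx2-1 at 1.25 (1.07 to 1.44). The 5 lowest included Irx2 (-6.48), Pou4f1, Kitl (-5.60) and Nwd2 (-5.17).

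Markers of other cells were counted in the same neurons. Progenitor genes summed to 270 against 168 CPM, and 72 of the 173 neurons (41.6%) passed the progenitor gate against 11.6% of those with none. Of the 6 genes Sox2 alone had a higher level, at 244 CPM and in 63.0% of the 173 neurons against 91.0 CPM and 20.0% of those with none. Hes5 was lower in level (16.4 against 28.6 CPM) though found in 8.09% against 5.26% of neurons, Hes1, Notch1 and Slc1a3 were lower in level, and Rax had 0 UMIs. Cycling genes summed to 29.5 CPM against 64.3 CPM, pituitary genes to 10.9 against 23.0 CPM, and vascular or fibroblast genes to 83.0 against 52.8 CPM, with 2 cells past that gate and all 26 Col1a1 UMIs in 1 cell. Macrophage genes summed to 43.7 against 12.0 CPM, and 1 of the 173 neurons passed the macrophage gate. Tyrobp (9 UMIs), Fcer1g (5), Csf1r (4) and C1qb (3) were each found in 1 cell, and 10 of the 11 C1qa UMIs lay in 1 cell. The part of these markers in the ratios was not tested.

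PACAP is made by peptide processing enzymes and acts through receptors. Of the 4 genes of this pathway with enough UMIs, 2 were called higher in neurons than in non-neuronal cells, against 12% of all 12217 genes. They were Adcyap1, itself one of the selected genes, and the convertase gene Pcsk2 (3.37, 3.01 to 3.75). The receptor gene Adcyap1r1 was at 13.6 CPM in neurons and 12.8 CPM in non-neuronal cells (log2 ratio 0.08, -0.29 to 0.47) and at 14.2 against 14.1 CPM in neurons with 2 or more against none of the 3 genes. The amidating enzyme gene Pam was at 113 against 109 CPM in the latter comparison. There Pcsk2 was lower, at 29.5 against 118 CPM (interval of the log2 ratio -2.61 to -1.45), while Pcsk1 had 34 UMIs in all neurons. The related ligand gene Vip had 1 UMI in neurons, and the receptor genes Vipr1 and Vipr2 had 0 and 10. Among relatives of the 6 genes, Nr5a2 was called lower (-2.55, -7.87 to -0.03) on 1 UMI in the 173 neurons, and Rbfox2 (0.23) and Rbfox3 (-0.49) did not reach the limit.

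Finally, the genes whose detection was most like that of each member were ranked over the 3726 thinned neurons by the correlation of detection (phi) among 8324 genes. These cells share 1 library and 1 depth, and all values were weak. Nr5a1 was most like Chchd10 (0.21, 112 of its 168 neurons), a mitochondrial protein gene, then Sox14 (0.19) and Prdm12 (0.15). Fezf1 was most like Gm2694 (0.26, 179 of its 233 neurons), Nr2f2 (0.26) and Nkx2-2 (0.23). Nr2f1 and Nr2f2 each had the other and Fezf1 among their first 3, at 0.25 for the pair, with Gm2694 (0.11) next for Nr2f1 and Rnd3 (0.21) next for Nr2f2. Rbfox1 was most like Cbln1 (0.18), Fezf1 (0.16) and S100a10 (0.15). Adcyap1 had no member among its first 3, which were S100a10 (0.12), Nell2 (0.11) and Cacna2d1 (0.11).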

How the data were processed

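The deposited table holds raw counts of UMIs per gene and cell, made by the authors with Cell Ranger 2.1.1 and STAR 2.4.0 on mm10 per the labels. All 4 sequencing runs enter it as 1 library, and 0 columns were left unused. Following the study's limits, cells with 200 to 4500 genes, at most 10% mitochondrial UMIs and at most 10 Hba-a1 UMIs were kept. No doublet caller was run; a lower limit on genes per cell was tried instead. The 6351 cells kept of 6465 barcodes held 24430646 UMIs. The study clustered fewer cells than its stated limits leave here, so its cell set was not rebuilt. A limit of 5% mitochondrial UMIs left 5040 cells. Neurons had at least 2 Stmn2 UMIs.

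Pooled counts were scaled to CPM with exact Poisson intervals. Shares have Clopper-Pearson intervals, and log2 ratios have conditional binomial intervals, all at 95% (SciPy 1.17.1). Genes with 50 UMIs over both classes in more than 3 cells entered a comparison. A share or fold against 0 used 3 counts. Intervals cover counting error only, and with 1 library no test was run. The calculations were tested on simulated data.

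Genes named are the 6 members, Stmn2, Nkx2-1 and Sox14, the marker and gene lists, for each member the 3 genes with the highest phi among those in at least 2% of thinned neurons, and the 10 highest and 5 lowest ratios of the comparison by Nr5a1, Fezf1 and Adcyap1, among genes in at least 10% of the cells where they were higher. Of these, 1 gene is not reported here. Sox2 and other marker genes named singly were chosen after their values were seen, as were the sorting by which of 3 genes was detected and the background of pairs with other genes. Members and lists were chosen with earlier results of these data known. The limits on cells, the neuron definition, the detection limit, thinning, depth strata and background were varied.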

Additional observations from a re-analysis of the deposited data

How the results depend on the processing

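No paired analysis was possible because the series holds 1 library and 1 group, and for the same reason no replicate could be left out. The Nr5a1 and Fezf1 ratio was 2.38 and stayed between 1.99 and 2.86 under the other settings, except 3.12 without depth strata, but its interval included 1 when detection needed 2 UMIs (0.858 to 3.92). With detection from 2 UMIs, the pairs with an interval above 1 fell from 11 to 6, the ratio of Fezf1 and Adcyap1 turned to 0.631 (0.0764 to 2.28), neurons with 2 or more of Nr5a1, Fezf1 and Adcyap1 were 0.349%, and 4 rather than 12 ARC genes were called lower. The alternatives to the comparison of neurons with 2 or more of these genes against none were added after the data were seen. Of 126 pair ratios under other settings 99 stayed within the interval of the reported value, as did 132 of 145 log2 ratios and 27 of 48 shares. The share of neurons with 2 or more was 4.32%, 1.40% after thinning and 5.20% from 4 Stmn2 UMIs. Against macrophage, vascular or fibroblast cells alone, the log2 ratio of Nr2f2 in neurons was -0.93 rather than 0.64, and Nr2f1 was called lower at -1.57 rather than -0.11. Members called higher numbered 4 in neurons under every setting, 3 or 4 with Nkx2-1 and 4 or 5 with Sox14. The cause of these changes was not tested. Depth limits Nr5a1 and Adcyap1 most, since about 80.1% and 83.8% of their neurons rest on 1 UMI, and cells of 1 library cannot show how embryos differ.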
